A study of Mus musculus with 12 samples.

Results

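The comparison set mephedrone alone against ethanol alone, a stimulant against a depressant, on the 6 arrays of those groups (3 mephedrone and 3 ethanol) out of 12 in the series. The arrays were chosen by the treatment in their sample labels, and no measured value entered the choice. The animals were male adolescents of the Swiss CD-1 stock, which is outbred, and each array held RNA of their anterior striata after a 10-day conditioned place preference procedure, which tests reward by pairing 1 compartment with a drug. Mephedrone, ethanol, both together (the combination) or saline was given 15 minutes before the animal entered the drug-paired compartment, and 3 arrays were made per treatment. Doses, the hour of collection and array batches are not stated, nor is it stated whether each array held a separate animal. The p-values thus reflect how far these samples spread, and that spread may be technical.

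Mephedrone is a synthetic cathinone that acts on the dopamine and serotonin transporters and releases both monoamines. Ethanol acts on many targets, and it is best known for enhancing GABA-A receptors and inhibiting NMDA receptors. In striatal projection neurons, dopamine and glutamate signals converge on cAMP and ERK signalling, which switch on immediate early genes such as Fos, Egr and Nr4a family members within minutes. The circadian clock also runs in the striatum. There the BMAL1 and CLOCK activators drive Per, Cry, Ciart and Dbp genes through E-boxes, and REV-ERB repressors encoded by Nr1d1 and Nr1d2 hold back Arntl, the gene for BMAL1.

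Every value below is a log2 value relative to the median of that probe set over all 12 arrays, and every difference is the mephedrone mean minus the ethanol mean on that scale. No probe set passed an adjusted p of 0.05 (0 of 28853, 0%) in limma, and the smallest adjusted p was 0.161. At an unadjusted p under 0.05, 901 probe sets were higher with mephedrone (3.12%) and 859 were lower (2.98%), together 1760 (6.1%) where chance alone gives 1443. In 1602 probe sets (5.55%) all 3 mephedrone arrays lay above all 3 ethanol arrays, and in 1840 (6.38%) they lay below. At an unadjusted p under 0.05 with at least a 1.5-fold difference, 7 probe sets were higher (0.0243%) and 13 lower (0.0451%). The median standard error of a difference was 0.053 and the median size of a difference was 0.038. All differences that follow are therefore values with intervals, and none is a call.

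The arrays carried the markers of striatum. Before centring, a probe set's level can be read roughly from the step of its numbers, which differs between values of 8 to 16 and values of 4 to 8 in log2. All 12 measured markers of striatal projection neurons, all 8 of direct-pathway and all 6 of indirect-pathway neurons had a probe set at 8 to 16, against 50.7% of all genes. Among markers of other tissues this held for 2 of 15 choroid plexus genes, 0 of 7 pituitary hormones, 0 of 5 blood cell genes, 6 of 15 hypothalamic and ventral forebrain genes, 5 of 9 genes of meninges and fibroblasts and 9 of 12 of cortical excitatory neurons. Ethanol replicate 1 stood apart from the other 5 arrays compared, with an SD of 0.127 over all probe sets against 0.068 to 0.0865, and its marker values are given beside the results they touch. In bulk tissue, fewer cells of a type and less RNA per cell cannot be told apart.

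The promoters of 4 genes with some of the larger differences are shown, chosen because they hold several copies of the elements through which the clock and activity signals act. Sequences are from RefSeq on build GRCm38.p6 and run from 250 bases before to 50 bases after the start site, on the gene's own strand. Of 22 clock and activity genes looked up by symbol, 19 were in the table, and Rbm3, Arc and Vgf were not. The motifs searched on both strands were the E-box CACGTG, the D-box TTATGTAA, the REV-ERB and ROR core AGGTCA, the cAMP response element TGACGTCA, its core TGACG and the CArG box of the serum response element. The core lies inside the full cAMP response element, which therefore counts under both. Capitals mark the matches to the motif named for each gene.
The Ciart window (chr3:95882179-95882478, minus strand) holds 3 E-boxes, which begin at -116, -58 and -44 from the start site.
Ciart promoter: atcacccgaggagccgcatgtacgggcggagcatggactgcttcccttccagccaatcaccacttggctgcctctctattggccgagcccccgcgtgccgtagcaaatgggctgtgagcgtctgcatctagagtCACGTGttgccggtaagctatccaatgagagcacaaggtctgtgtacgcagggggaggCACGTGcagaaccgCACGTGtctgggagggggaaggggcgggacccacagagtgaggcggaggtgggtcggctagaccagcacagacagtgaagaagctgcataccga
The Per3 window (chr4:151044616-151044915, minus strand) holds 2 D-boxes, which begin at -205 and -158.
Per3 promoter: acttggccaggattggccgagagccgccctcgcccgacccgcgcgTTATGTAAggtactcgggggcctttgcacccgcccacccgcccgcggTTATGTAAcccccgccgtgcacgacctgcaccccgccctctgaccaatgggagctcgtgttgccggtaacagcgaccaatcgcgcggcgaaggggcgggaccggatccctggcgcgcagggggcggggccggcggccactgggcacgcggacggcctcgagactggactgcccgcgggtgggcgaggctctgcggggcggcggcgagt
The Egr2 window (chr10:67537619-67537918, plus strand) is 1 of 5 start sites listed and holds a CArG box, at -72, and cAMP cores at -111 and -55. It was taken as the first of the windows with the most matches. The listed window that begins at 67535249 held neither element, only an E-box.
Egr2 promoter: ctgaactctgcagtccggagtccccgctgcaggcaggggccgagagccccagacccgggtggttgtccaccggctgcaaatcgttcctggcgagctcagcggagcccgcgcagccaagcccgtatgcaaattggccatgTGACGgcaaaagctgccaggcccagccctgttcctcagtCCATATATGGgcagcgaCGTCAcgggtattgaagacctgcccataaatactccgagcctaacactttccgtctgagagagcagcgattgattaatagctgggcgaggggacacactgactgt
The Nr4a1 window (chr15:101266596-101266895, plus strand) holds 4 cAMP cores, at -233, -213, -69 and -40.
Nr4a1 promoter: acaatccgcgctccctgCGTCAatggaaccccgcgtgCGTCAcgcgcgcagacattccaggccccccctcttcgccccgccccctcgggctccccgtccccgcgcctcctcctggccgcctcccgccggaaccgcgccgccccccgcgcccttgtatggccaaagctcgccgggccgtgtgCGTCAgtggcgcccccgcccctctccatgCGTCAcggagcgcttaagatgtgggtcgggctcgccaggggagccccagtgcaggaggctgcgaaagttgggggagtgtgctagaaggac

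The same motifs were counted in all 32851 promoters of the table. At least 1 E-box was in 7.15% of them and at least 3 in 0.0883%, at least 1 D-box in 0.938% and at least 2 in 0.0213%. A CArG box was in 1.63%, at least 2 cAMP cores in 5.01% and at least 4 in 0.231%. These shares are for single promoters, while the 4 shown were chosen for their matches. The Egr2 window was in addition picked from 5 by its matches. The Nr4a3 promoter also held 4 cAMP cores, both listed Tef promoters held 1 E-box, and the Dio2 promoter held a full cAMP response element, found in 1.79%. The Nr1d2 window and 1 of 2 Arntl windows held the AGGTCA core, found in 16.3%. The windows of Dbp, Fosl2, Dusp6 and Trim9 and both listed Etv5 windows held none of the motifs searched. The same was true of the other Arntl window and 1 of 2 Cirbp windows. A match is a description of the sequence and does not show that a factor was bound in these samples.

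The circadian clock held the gene with the smallest p on the gene level, where each gene is the mean of its probe sets. Ciart, a repressor of the clock, read -0.50, -0.38 and -0.31 on the ethanol arrays and 0.15, 0.35 and 0.30 on the mephedrone arrays. Every mephedrone array lay above every ethanol array. The difference was 0.66 (SE 0.084, 95% interval 0.48 to 0.85, 1.58-fold, limma adjusted p = 0.0564 over 19938 genes), just short of the threshold. On single probe sets the difference was 0.62 (SE 0.085, adjusted p = 0.172) or 0.71 (SE 0.12, adjusted p = 0.252).

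Arntl, the gene of the activator BMAL1, went the other way. It read 0.25, 0.32 and 0.34 with ethanol and -0.12, -0.084 and -0.28 with mephedrone. No arrays of the 2 groups overlapped, and the difference was -0.46 (SE 0.070, 95% interval -0.62 to -0.31, adjusted p = 0.172), or 1.38-fold lower with mephedrone. Per3, a period gene, read -0.25, -0.29 and -0.10 with ethanol and 0.19, 0.18 and 0.11 with mephedrone, a difference of 0.37 (SE 0.062, adjusted p = 0.252). Dbp, a clock-driven transcription factor of the PAR bZIP family that binds D-boxes, read -0.36, -0.11 and -0.12 with ethanol and 0.11, 0.089 and 0.14 with mephedrone, a difference of 0.30 (SE 0.063, adjusted p = 0.323). In both genes each mephedrone array was above each ethanol array.

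The relatives of Dbp lay on the same side. Tef read -0.16, -0.016 and -0.033 with ethanol and 0.15, 0.12 and 0.12 with mephedrone, a difference of 0.20 (SE 0.055). Hlf differed by 0.16 (SE 0.043), also without overlap. Nfil3, a repressor that competes for the same D-boxes, was lower with mephedrone in all 3 arrays, by a difference of -0.12 (SE 0.043). Nr1d2, a repressor of Arntl, differed by 0.18 (SE 0.054) and Bhlhe41, a repressor at E-boxes, by 0.30 (SE 0.10), both with the groups apart. Gene-level adjusted p-values of these 5 genes ran from 0.581 to 0.715.

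Other members of the loop lay closer to 0. Per1, at -0.11 (SE 0.11), had its mephedrone arrays just below its ethanol arrays. Per2 was at 0.059 (95% interval -0.22 to 0.34), Cry1 at -0.058 (-0.22 to 0.11), Cry2 at 0.072 (-0.042 to 0.18) and Nr1d1 at 0.071 (-0.067 to 0.21), each with overlapping groups. Clock, the partner of BMAL1, was at -0.075 (SE 0.033). Of 20 measured clock genes 7 were higher and 3 lower at an unadjusted p under 0.05, against 3.26% and 3.02% of all genes. The mephedrone arrays lay wholly above the ethanol arrays in 7 and wholly below in 4, against 5.56% and 6.7%. The list median was 0.057 beside -0.0033 over all genes, and it was 0.0163 without ethanol replicate 2 and 0.0331 without mephedrone replicate 1.

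**Figure D1:**
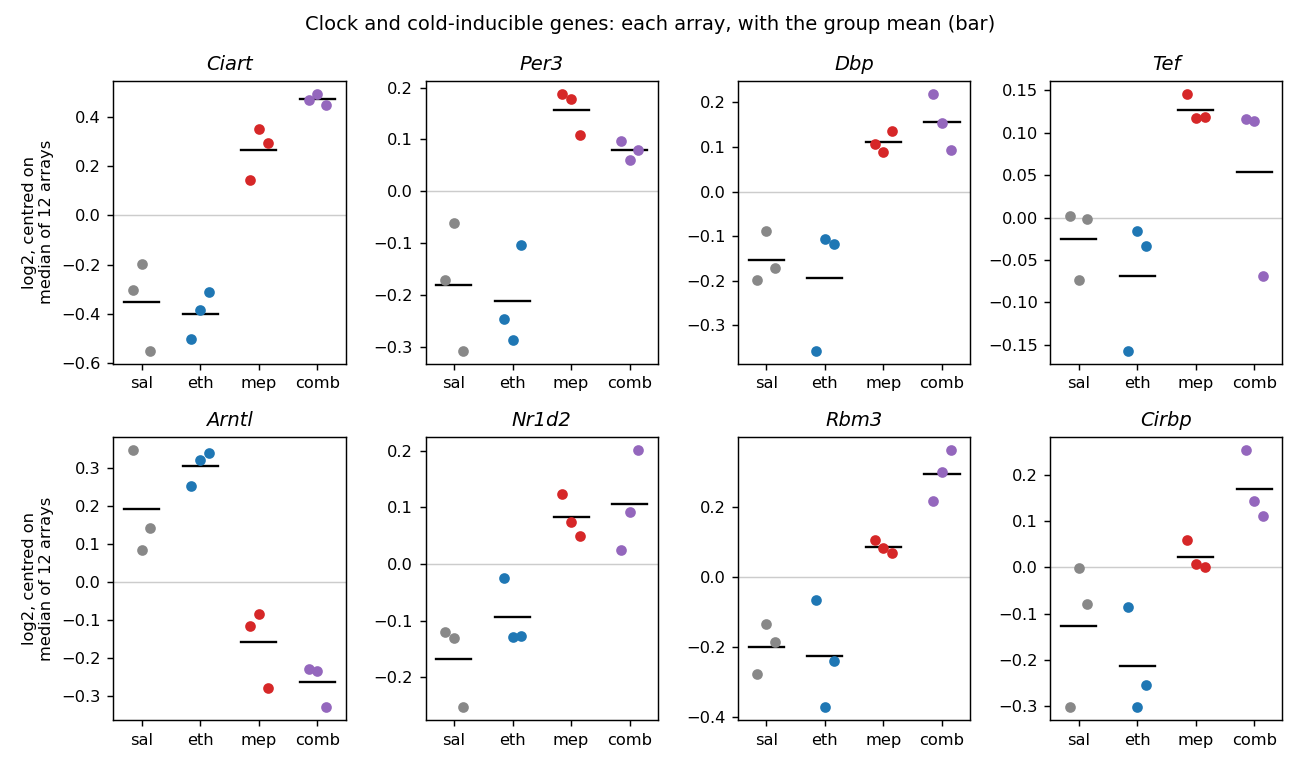
Centred log2 value of each array (points) and the group mean (bars) for 8 clock and cold-inducible genes, in the groups saline (sal), ethanol (eth), mephedrone (mep) and combination (comb). Arntl runs opposite to the other 7 genes, whose mephedrone arrays all lie above their ethanol arrays.

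Rbm3 and Cirbp, RNA-binding proteins known for their induction by mild cold, both lay higher with mephedrone. Rbm3, averaged over 3 probe sets, read -0.067, -0.37 and -0.24 with ethanol and 0.11, 0.082 and 0.068 with mephedrone. The difference was 0.31 (SE 0.069, 95% interval 0.16 to 0.46, gene-level adjusted p = 0.412) and lay between 0.30 and 0.32 on the single probe sets, which may read near-identical copies. Cirbp read -0.085, -0.30 and -0.25 with ethanol and 0.058, 0.0066 and 0.00091 with mephedrone, a difference of 0.23 (SE 0.077, adjusted p = 0.66). Neither gene had overlapping groups, and ethanol replicate 1 was the ethanol array nearest to the mephedrone arrays in both.

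Of the 37 gene lists, immediate early genes, the longest list, had the most members apart in 1 direction by count, though not by share. Of 32 measured, 24 were below 0, 15 were lower at an unadjusted p under 0.05 and 0 higher, and in 15 all 3 mephedrone arrays lay below all 3 ethanol arrays. Over all 19938 genes 10466 were below 0, 3.02% were lower at that level and 6.7% lay below in that way. The list median was -0.12. The mean of the list was 0.203, 0.173 and 0.175 on the ethanol arrays and -0.0778, -0.0042 and 0.0435 on the mephedrone arrays, so that the groups did not overlap. Without ethanol replicate 1 the median was -0.158 and 25 of 32 were below 0.

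Nuclear receptor and zinc finger factors had the 3 largest differences of the list. Nr4a1, an orphan nuclear receptor induced by activity, read 0.67, 0.88 and 1.00 with ethanol and -0.30, -0.24 and 0.16 with mephedrone. The difference was -0.975 (SE 0.23, 95% interval -1.47 to -0.48, adjusted p = 0.408), or 1.97-fold lower with mephedrone, and the groups lay apart. Its relative Nr4a3 read 0.63, 0.41 and 0.72 against -0.32, -0.0023 and -0.038, a difference of -0.71 (SE 0.18, gene-level adjusted p = 0.496). Egr2, whose promoter is shown above with a CArG box, read 0.87, 0.95 and 0.95 with ethanol and -0.038, -0.0038 and 0.26 with mephedrone, a difference of -0.85 (SE 0.21, 95% interval -1.31 to -0.40, adjusted p = 0.439). Its 3 ethanol arrays lay close together, and all were above the mephedrone arrays. Egr1 was at -0.40 (SE 0.11), Egr4 at -0.43 (SE 0.12) and Egr3 at -0.23 (SE 0.070), each without overlap.

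The AP-1 subunits lay on the same side with smaller differences. Fosl2 read 0.52, 0.51 and 0.43 with ethanol and -0.17, -0.026 and 0.026 with mephedrone, a difference of -0.54 (SE 0.14, gene-level adjusted p = 0.561). Fosb was at -0.26 (SE 0.087), Fos at -0.28 (SE 0.10) and Jund at -0.23 (SE 0.074), all 3 with the groups apart. Junb, at -0.14 (SE 0.076), had overlapping arrays.

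Among effectors, Arc, which acts at synapses in the trafficking of AMPA receptors, read 0.37, 0.53 and 0.45 with ethanol and -0.27, -0.17 and 0.11 with mephedrone, a difference of -0.56 (SE 0.17, gene-level adjusted p = 0.617). Vgf, which encodes a secreted neuropeptide precursor, read 0.53, 0.30 and 0.46 against -0.055, -0.058 and -0.085, a difference of -0.49 (SE 0.11, adjusted p = 0.382). Both genes had every mephedrone array below every ethanol array. The kinase Sik1, induced through CREB, was at -0.25 (SE 0.080), and the scaffold gene Homer1 was at -0.11 (SE 0.059). The largest values above 0 were those of Nr4a2, at 0.51 with an SE of 0.38, and Npas4, at 0.24 with an SE of 0.22, and the groups of both overlapped.

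**Figure D2:**
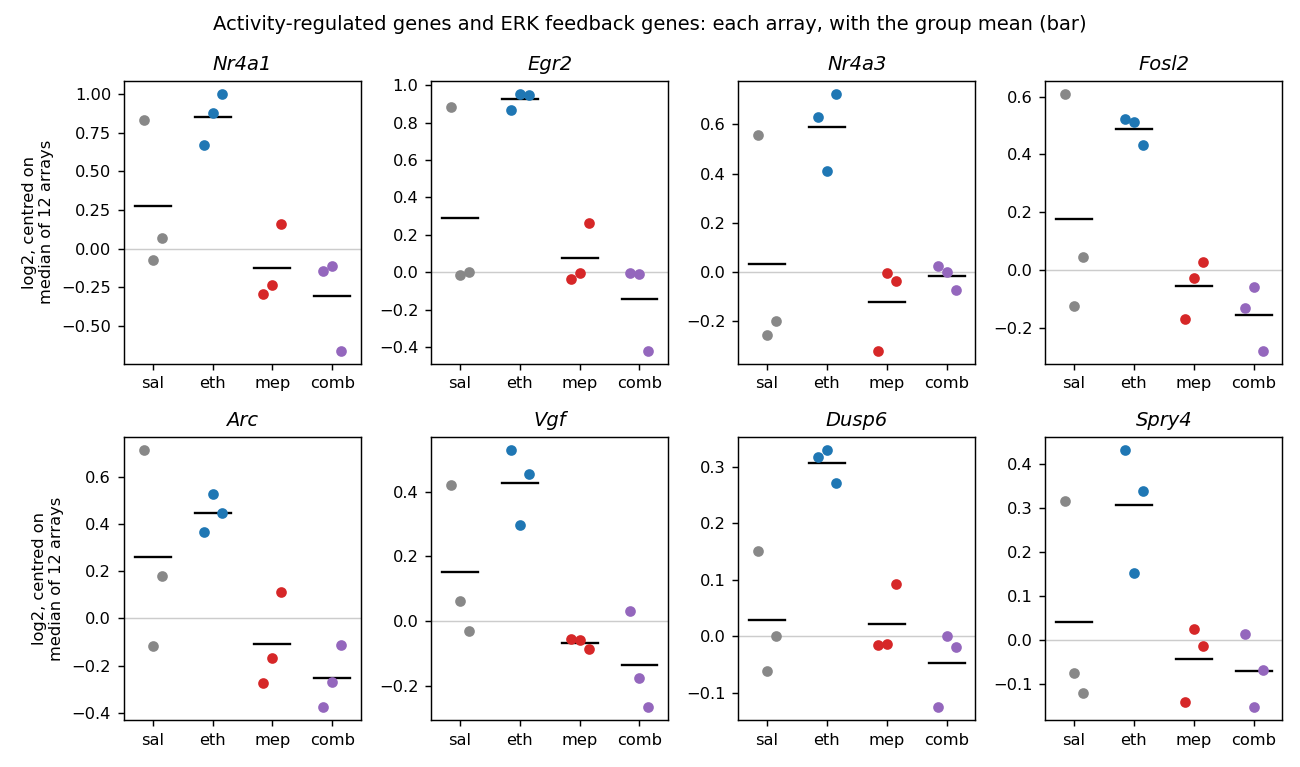
Centred log2 value of each array (points) and the group mean (bars) for 6 activity-regulated genes and 2 ERK feedback genes in the 4 groups, saline (sal), ethanol (eth), mephedrone (mep) and combination (comb). The ethanol arrays lie above the mephedrone arrays in all 8 panels, and saline replicate 1, the left saline point, is the highest saline array in each.

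Genes of the ERK feedback list lay lower with mephedrone as well. The list holds genes that restrain ERK signalling and also factors downstream of ERK, such as Etv5. All 13 measured members were below 0, with a median of -0.14, where 10466 of all 19938 genes were below 0. Of the 13, 6 were lower at an unadjusted p under 0.05, against 3.02% of all genes, and in 8 the groups lay apart with mephedrone below, against 6.7%. Dusp4, Dusp5 and Dusp6 belong to the immediate early list too, so the lists are not independent. Dusp6, an ERK phosphatase, read 0.32, 0.33 and 0.27 with ethanol and -0.016, -0.013 and 0.092 with mephedrone. The difference was -0.29 (SE 0.057, 95% interval -0.41 to -0.16, gene-level adjusted p = 0.398), and no arrays overlapped.

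Etv5, a transcription factor downstream of ERK, differed by -0.33 (SE 0.075, adjusted p = 0.385) on 1 probe set and by -0.43 (SE 0.10, adjusted p = 0.415) on the other. Spry4 was at -0.35 (SE 0.11) and Spred3 at -0.24 (SE 0.073), and both encode inhibitors of Ras and ERK signalling. In each of these genes every mephedrone array was below every ethanol array. Without ethanol replicate 1 all 13 members were still below 0, with a median of -0.122.

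**Figure D3:**
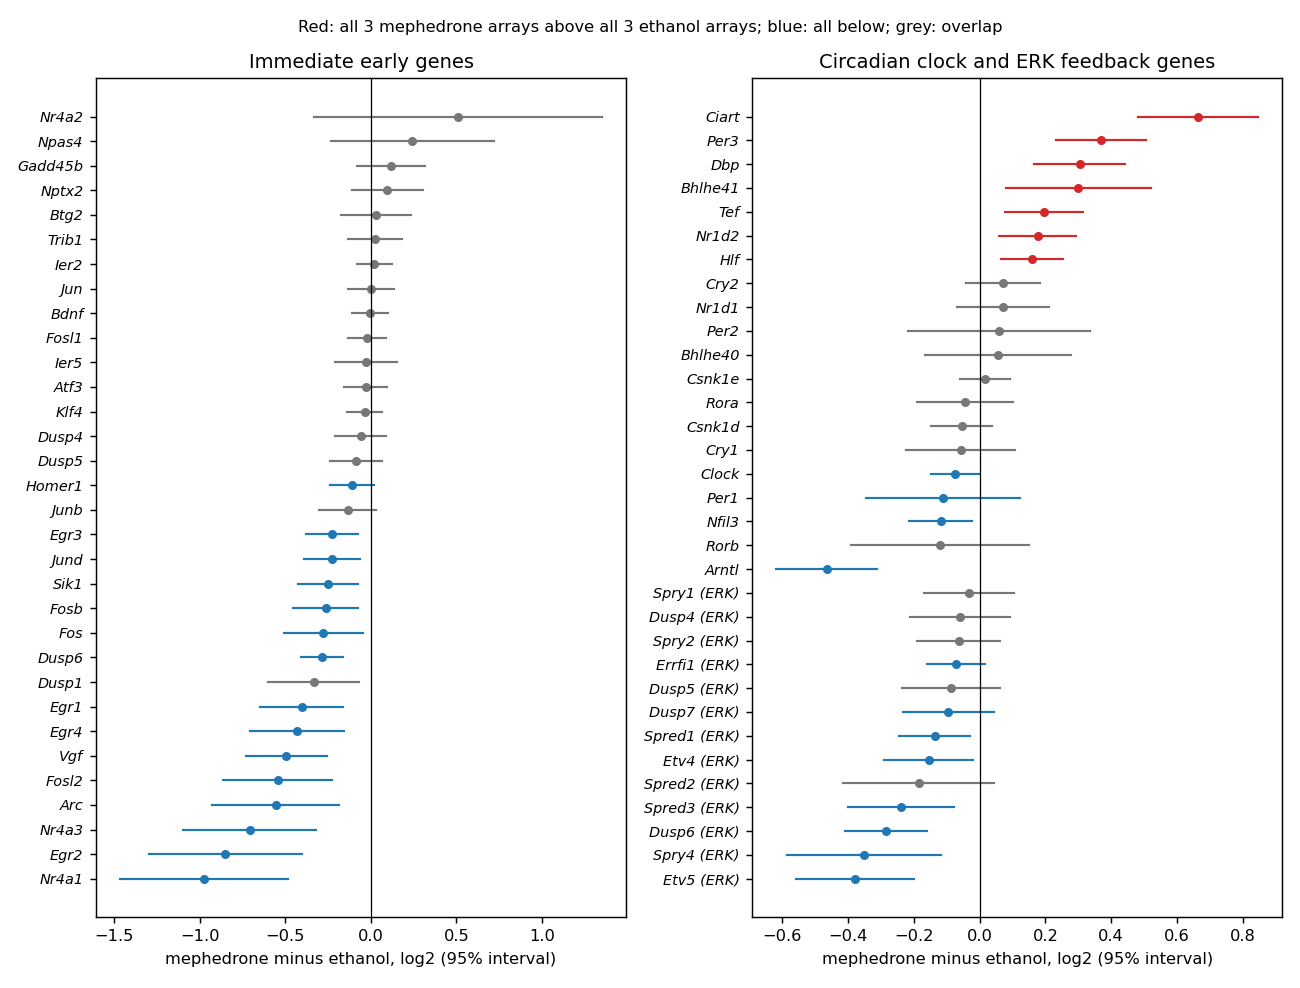
Difference of mephedrone minus ethanol in log2 (points) with its 95% interval (lines) for every measured immediate early gene (left) and for clock and ERK feedback genes (right). Colours mark genes whose 3 mephedrone arrays lie above (red) or below (blue) all 3 ethanol arrays, and grey marks overlap; 24 of 32 immediate early genes and 13 of 13 ERK feedback genes lie below 0.

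Over all probe sets with 1 symbol, 12 genes per direction were named by the smallest p where the groups did not overlap and differed by at least 0.3. Under this rule the groups had to lie apart. Ciart, Per3, Dbp, Arntl, Rbm3, Nr4a1, Egr2, Vgf and Etv5, given above with their lists, are among the named genes. Of the higher ones, Pilra, an inhibitory receptor of myeloid cells, had the greatest difference. It read -0.37, -0.55 and -0.74 with ethanol and 0.33, 0.34 and 0.43 with mephedrone, a difference of 0.92 (SE 0.16, 95% interval 0.56 to 1.28, adjusted p = 0.252), or 1.89-fold. Gpx6, a glutathione peroxidase, read -0.36, -0.09 and -0.36 against 0.50, 0.58 and 0.85, a difference of 0.91 (SE 0.14, 95% interval 0.59 to 1.23, adjusted p = 0.198). Both probe sets had number steps of 4 to 8 in log2, the dimmer class, as did Slc9b2 (0.30) and Zcwpw1 (-0.33). The other 20 of the 24 named were in the brighter class.

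Nfu1, an iron-sulphur cluster protein of mitochondria, was at 0.41 on 1 probe set (SE 0.097) and at 0.12 on the other (SE 0.083), where the groups overlapped. Trhr2, a receptor for thyrotropin-releasing hormone, read -0.20, -0.21 and -0.19 with ethanol and 0.031, 0.23 and 0.058 with mephedrone, a difference of 0.30 (SE 0.062). Zfp157 was at 0.44 (SE 0.092), Mxra8 at 0.37 (SE 0.094) and Riox2 at 0.30 (SE 0.052). Their adjusted p-values, with Slc9b2 and the Nfu1 probe set at 0.41, ran from 0.252 to 0.462.

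Of the lower ones, Trim9, a neuronal ubiquitin ligase, read 0.21, 0.13 and 0.14 with ethanol and -0.17, -0.098 and -0.20 with mephedrone, a difference of -0.31 (SE 0.046, adjusted p = 0.172). Bcl2, which blocks apoptosis, read 0.53, 0.35 and 0.39 against 0.038, -0.081 and -0.12, a difference of -0.48 (SE 0.11, adjusted p = 0.419). No arrays overlapped in either gene. Apln, the apelin precursor, was at -0.31 (SE 0.064), Pld5, a member of the phospholipase D family, at -0.52 (SE 0.13) and Cacng2, an auxiliary subunit of AMPA receptors, at -0.32 (SE 0.058) with -0.16 (SE 0.056) on its other probe set. Mpp3, a membrane scaffold, had the smallest p of all probe sets but missed the minimum of the rule, and it was chosen after its values were seen. It read 0.16, 0.20 and 0.27 with ethanol and -0.080, -0.088 and -0.096 with mephedrone, a difference of -0.30 (SE 0.037, adjusted p = 0.161).

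The saline and combination arrays did not enter these differences and show where they lay. The saline mean was nearer to the ethanol than to the mephedrone mean in 10 of the 12 named higher genes and in 6 of the 12 named lower genes. The named genes include clock and early genes given above, so counts over them, here and below, are not separate from those results. Among all probe sets of the same kind (no overlap, unadjusted p under 0.05, difference of at least 0.3) it was nearer to ethanol in 25 of 45 higher and 50 of 100 lower ones. Ciart had saline at -0.35 ± 0.18 (SD, n = 3), ethanol at -0.40 ± 0.097, mephedrone at 0.26 ± 0.11 and the combination at 0.47 ± 0.022. Saline thus lay with ethanol for Ciart, while for Egr2 it was split, with replicate 1 at 0.89 beside the ethanol arrays and replicates 2 and 3 at -0.017 and 0.0038 beside the mephedrone arrays. The immediate early list mean showed the same split, at 0.21, -0.077 and -0.00074 in saline replicates 1, 2 and 3.

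The combination mean was nearer to mephedrone than to ethanol in 10 of 12 named higher genes and in 12 of 12 named lower genes. Among all probe sets of that kind it was nearer to mephedrone in 40 of 45 higher and 83 of 100 lower ones. The exceptions among the named genes were Gpx6 and Slc9b2. The difference of combination minus saline, which shares no array with mephedrone minus ethanol, had the same sign in 11 of 12 named higher genes and in 11 of 12 named lower genes. Over all probe sets that share was 59.5% of 13902 above 0 and 54.8% of 14951 below 0. These include differences of any size, with a median size of 0.038. The named genes were picked by p, with groups apart and differences of at least 0.3, so the shares are not a like-for-like background. The share was not counted for the other probe sets of that kind. The p-values that picked the named genes also drew on the spread of the saline and combination arrays. In combination minus saline, Ciart was at 0.89, Nfu1 at 0.68, Rbm3 at 0.52, Nr4a1 at -0.58 and Arntl at -0.46. Gpx6, at 0.0045, was close to 0 there.

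Genes of the receptors and transporters on which the drugs act gave small differences or wide intervals. Of 5 dopamine receptors 0 reached an unadjusted p of 0.05 in limma and 0 lay apart. Over all genes 3.26% were higher and 3.02% lower at that level, and 5.56% and 6.7% lay apart above and below. For 5 genes a count of 0 is near those shares. Drd1, the receptor of direct-pathway neurons, was at 0.019 (95% interval -0.23 to 0.26), and Drd2, that of indirect-pathway neurons, at -0.027 (-0.26 to 0.21). Drd3, which the series title names, read 0.34, 0.092 and 0.14 with ethanol and 0.052, -0.31 and 0.25 with mephedrone. The groups overlapped, and the difference was -0.19 (SE 0.25, 95% interval -0.74 to 0.36). That interval is too wide to show a change or to exclude a 1.5-fold fall with mephedrone. Single arrays moved the difference. The Drd3 difference was -0.0372 without mephedrone replicate 2, -0.315 without mephedrone replicate 3 and -0.115 without ethanol replicate 1. Drd4 was at -0.00024 (-0.12 to 0.12) and Drd5 at -0.081 (-0.19 to 0.028), or -0.0463 without ethanol replicate 1.

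Among 13 genes of monoamine synthesis, transport and breakdown 0 reached an unadjusted p of 0.05, and the median was 0.015. At that level 3.26% of all genes were higher and 3.02% lower, so 0 of 13 is near those shares. The mephedrone arrays lay wholly above the ethanol arrays in 1 gene and wholly below in 2, against 5.56% and 6.7%. The dopamine transporter gene Slc6a3 was at 0.0049 (-0.14 to 0.15), the serotonin transporter gene Slc6a4 at -0.046 (-0.15 to 0.054) and the vesicular transporter gene Slc18a2 at -0.13 (-0.31 to 0.060). The cell bodies that make these transporters lie in the midbrain, outside the tissue sampled, and 3 of the 13 genes had a probe set in the brighter class. Maoa, a monoamine oxidase present in many brain cells, was at 0.099 (SE 0.058) with overlapping groups, or 0.0352 without ethanol replicate 2.

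Peptides and receptors of the striatum were in the main close to 0. Oprk1, the kappa opioid receptor, read -0.049, -0.021 and -0.39 with ethanol and 0.16, 0.13 and 0.30 with mephedrone, a difference of 0.35 (SE 0.12, gene-level adjusted p = 0.685). Its groups lay apart, and the difference was 0.232 without ethanol replicate 3. Pdyn, the precursor of its ligand dynorphin, was at 0.14 (SE 0.081), Penk at 0.051 (SE 0.057) and Tac1, the substance P precursor, at 0.15 (SE 0.11), and of these 3 the groups of Penk lay apart. Without ethanol replicate 1 Pdyn was at 0.0835 and Tac1 at 0.0396, and without ethanol replicate 3 Tac1 was at 0.23. The list medians were 0.060 for 8 opioid genes, 0.038 for 11 other peptide genes and 0.019 for 15 genes of dopamine and cAMP signalling.

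Receptors on which ethanol acts gave no called difference either. Of 12 GABA-A subunits 6 were above and 6 below 0, with a median of 0.0031. At an unadjusted p under 0.05 there were 0, against 3.26% higher and 3.02% lower over all genes. The widest value among the subunits, -0.37 for Gabrq (SE 0.33), went with a reading of 1.03 on ethanol replicate 1 against -0.053 and 0.062 on the other ethanol arrays. Gabrq was at -0.0251 without ethanol replicate 1, -0.566 without ethanol replicate 2 and -0.556 without mephedrone replicate 1. Of 6 NMDA subunits 5 were below 0 and 0 reached an unadjusted p of 0.05, with Grin2d at -0.17 (SE 0.13), or -0.0591 without ethanol replicate 1, and Grin2a at 0.089 (SE 0.099). Among 14 AMPA receptor genes and partners 2 were higher and 2 lower at an unadjusted p under 0.05, against 3.26% and 3.02% of all genes, the lower ones being Cacng2 and Cacng3, at -0.20 (SE 0.089). Of 13 serotonin receptors 0 reached that level, and Htr7 was at -0.16 (SE 0.12). Htr7 was at -0.0288 without ethanol replicate 1, -0.0513 without mephedrone replicate 2 and -0.278 without mephedrone replicate 1. In the short GABA-A, NMDA and serotonin lists, counts of 0 are near the shares over all genes.

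Enzymes that clear ethanol and its products were close to 0. Of 16 genes of alcohol, aldehyde and acetate metabolism 1 reached an unadjusted p under 0.05, near the shares over all genes, 3.26% higher and 3.02% lower. That gene was Acss1, which activates acetate in mitochondria. It read 0.28, 0.083 and 0.010 with ethanol and -0.010, -0.086 and -0.12 with mephedrone, a difference of -0.20 (SE 0.067, gene-level adjusted p = 0.668), with ethanol replicate 1 the highest array and a difference of -0.12 without it. Aldh2, the main acetaldehyde dehydrogenase, was at -0.064 (-0.22 to 0.094), and Cat, the catalase that can oxidise ethanol in brain, at 0.15 (-0.088 to 0.38), both with overlap. Of 16 genes of the NRF2 antioxidant response 8 were above and 8 below 0, with Slc7a11, the cystine transporter, at -0.48 (SE 0.18) in overlapping groups.

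Thyroid hormone genes had 9 of 10 members below 0 and a median of -0.073, which was -0.0468 without ethanol replicate 3 and -0.0427 without mephedrone replicate 3. Dio2, the deiodinase of astrocytes that makes active thyroid hormone, read 0.16, 0.35 and 0.19 with ethanol and -0.14, -0.085 and -0.11 with mephedrone. The groups lay apart, with a difference of -0.34 (SE 0.064, 95% interval -0.49 to -0.20, adjusted p = 0.277). Slco1c1, which carries thyroxine into the brain, was at -0.20 (SE 0.086) with overlap. The nuclear receptors Thra and Thrb, at 0.059 and -0.026, were closer to 0.

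Heat shock and unfolded protein response genes had 20 of 21 members below 0, with a median of -0.087. Hspb1, a small heat shock protein, read 0.44, 0.30 and 0.12 with ethanol and -0.090, 0.034 and -0.087 with mephedrone, a difference of -0.34 (SE 0.089, gene-level adjusted p = 0.545). Hspa5, the chaperone BiP of the endoplasmic reticulum, read 0.33, 0.19 and 0.31 against -0.0092, 0.0092 and -0.19, a difference of -0.34 (SE 0.12, adjusted p = 0.668). Both lay apart, as did Xbp1, a transcription factor of the unfolded protein response, at -0.22 (SE 0.088), and these 3 were the members lower at an unadjusted p under 0.05, against 3.02% of all genes. The median was -0.0494 without ethanol replicate 1 and -0.0504 without mephedrone replicate 3, with 17 of 21 below 0 in each.

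Of 21 mitochondrial cofactor and assembly genes 5 were higher and 1 lower at an unadjusted p under 0.05, against 3.26% and 3.02% of all genes. The higher ones were Pex7, the receptor that imports proteins into peroxisomes, at 0.21 (SE 0.045), Sdhaf4, an assembly factor of succinate dehydrogenase, at 0.18 (SE 0.043), Nfu1, and the ubiquinone synthesis genes Coq2 and Coq3, at 0.25 (SE 0.088) and 0.17 (SE 0.057). Pex7 read -0.086, -0.099 and -0.047 with ethanol and 0.21, 0.047 and 0.13 with mephedrone, with a gene-level adjusted p = 0.41. One probe set of Sdhaf4, at 0.165, was at 0.0871 without mephedrone replicate 2. Coq4, of the same synthesis complex, was the lower one, at -0.15 (SE 0.050). The list median, 0.023, was thus small although several members lay apart. Of 16 glucocorticoid-responsive genes 2 were higher and 1 lower at an unadjusted p under 0.05, against the same shares of all genes. The mephedrone arrays lay wholly above in 3 and wholly below in 2, against 5.56% and 6.7%. The median was 0.025, with Tiparp at -0.30 (SE 0.078) and Sgk3 at 0.17 (SE 0.062), its groups apart. Fkbp5 was at 0.034 (SE 0.047) and Sgk1 at 0.11 (SE 0.12). Sterol synthesis genes gave a median of 0.0070 over 16 members.

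**Figure D4:**
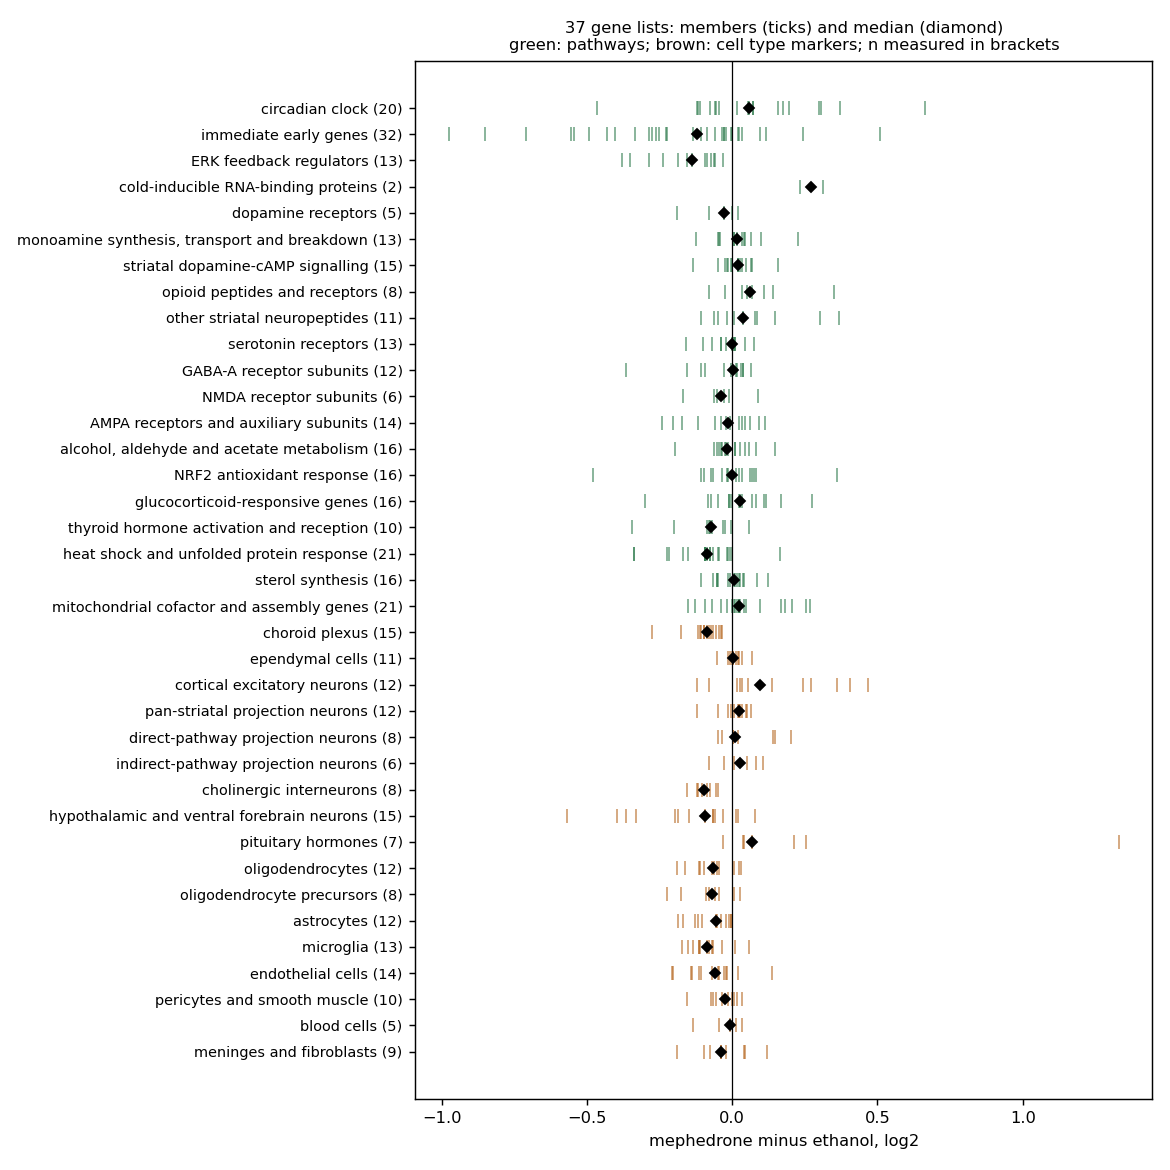
Difference of mephedrone minus ethanol in log2 for the measured members (ticks) and the median (diamond) of 37 gene lists, pathways in green and cell type markers in brown, with the number measured in brackets. Medians lie between -0.14 for ERK feedback genes and 0.27 for the 2 cold-inducible genes.

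Cell type marker lists had small medians, and several of these depended on single arrays. Endothelial markers had 12 of 14 members below 0 and 4 lower at an unadjusted p under 0.05, against 3.02% of all genes, with a median of -0.060 that was -0.0336 without ethanol replicate 1 and -0.0975 without ethanol replicate 2. Pecam1, an adhesion molecule of endothelium, read 0.16, 0.18 and 0.085 with ethanol and -0.040, 0.0038 and -0.16 with mephedrone, a difference of -0.21 (SE 0.047, gene-level adjusted p = 0.43). Cldn5, the tight junction protein of the blood-brain barrier, was at -0.20 (SE 0.062). Both genes lay apart.

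Microglial markers had 11 of 13 below 0, with a median of -0.085 that was -0.132 without mephedrone replicate 2, and Siglech and C1qa were at -0.13 (SE 0.058) and -0.12 (SE 0.052). Astrocyte markers had 12 of 12 below 0, with a median of -0.054. That median was -0.0323 without ethanol replicate 1, with 8 of 12 below 0, -0.0355 without mephedrone replicate 3, -0.082 without ethanol replicate 2 and -0.0885 without mephedrone replicate 1. Oligodendrocyte markers were at a median of -0.065. Cholinergic interneuron markers had 8 of 8 below 0, with a median of -0.096. Neither these lists nor those of pericytes, blood cells and meninges held a gene past the threshold.

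Tissue next to the striatum differed between single arrays. The choroid plexus mean was 0.69, -0.067 and -0.082 on the ethanol arrays and 0.50, -0.16 and -0.099 on the mephedrone arrays, so that replicate 1 of each group was high. All 15 members were below 0 in the comparison, with a median of -0.088. The median was 0.123 without ethanol replicate 1, 0.00817 without mephedrone replicate 2 and 0.0124 with array weights, so its sign rested on single arrays. It was -0.174 and -0.148 without ethanol replicates 2 and 3, and -0.185 and -0.0536 without mephedrone replicates 1 and 3. Hypothalamic and ventral forebrain markers had a mean of 0.43 on ethanol replicate 1 against 0.014 and -0.00072 on the other ethanol arrays. Their median was -0.093, and it was -0.0168 without that array, -0.057 without mephedrone replicate 1 and -0.144 without mephedrone replicate 3.

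Cortical excitatory markers had a median of 0.095, which was -0.0335 without ethanol replicate 2 and 0.0068 without mephedrone replicate 2, 0.17 without ethanol replicate 1 and 0.144 without mephedrone replicate 3. Striatal projection neuron markers had a median of 0.022, with list means of -0.13, 0.083 and 0.038 with ethanol and 0.0063, -0.0022 and 0.0092 with mephedrone. Beside these array differences, the clock median was 0.0486 and the immediate early median -0.158 without ethanol replicate 1. With the choroid plexus mean of each array as a covariate they were 0.0553 and -0.131.

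Pituitary hormone genes gave the largest single difference of all probe sets. Gh, growth hormone, read -0.44, -0.17 and -0.14 with ethanol and 0.61, 0.22 and 2.42 with mephedrone, a difference of 1.33 (SE 0.48, gene-level adjusted p = 0.699). The groups lay apart, and the difference was 0.664 without mephedrone replicate 3. Prl, prolactin, was at 0.25 (SE 0.13) and was also highest on that array, at 0.51, with a difference of 0.0826 without it. None of the 7 pituitary genes had a probe set in the brighter class.

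**Figure D5:**
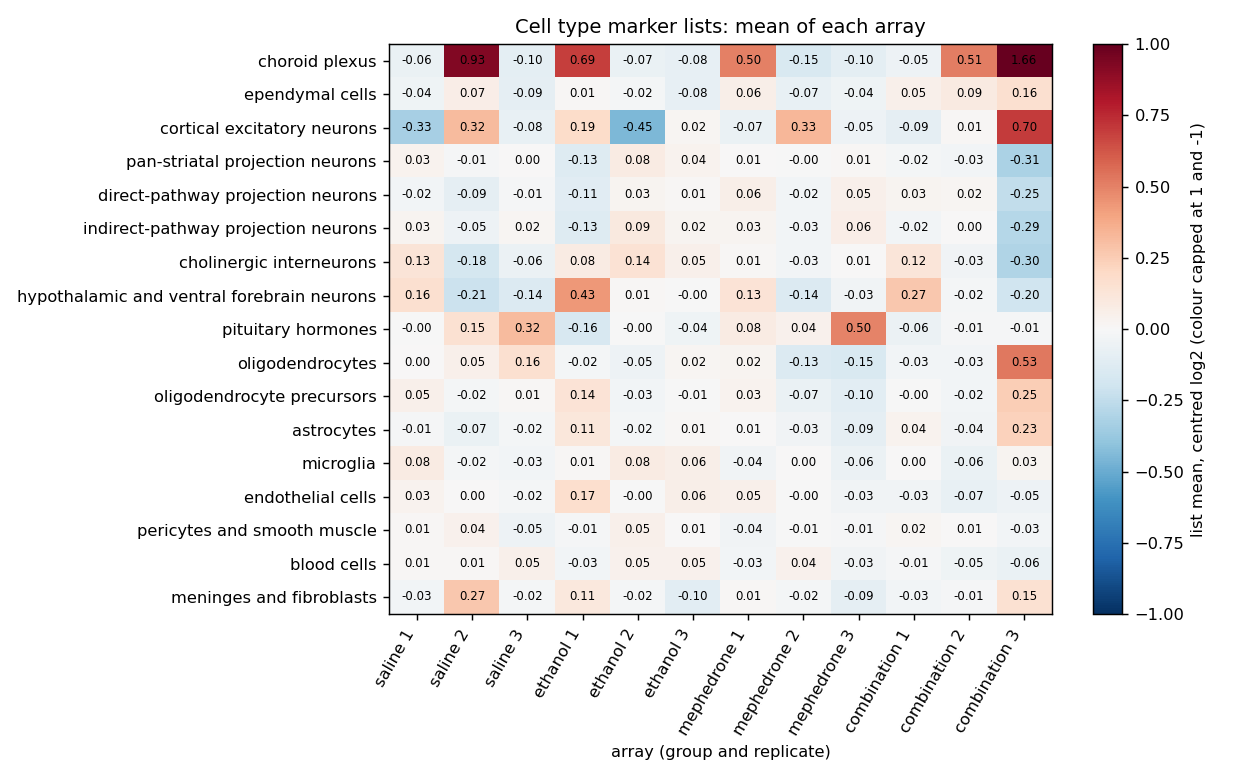
Mean centred log2 value of each cell type marker list (rows) on each of the 12 arrays (columns), with the value printed in each cell and the colour capped at 1 and -1. Ethanol replicate 1 has choroid plexus at 0.69 and hypothalamic and ventral forebrain markers at 0.43, and mephedrone replicate 3 has pituitary hormones at 0.50.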

How the data were processed

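RNA was measured on 12 Affymetrix whole-transcript mouse arrays, and no array was left out. The deposited table holds log2 values made with RMA (background correction, quantile normalisation and probe summary) on build mm8, per the submitters' processing notes, and GeneSpring GX 7.3.1 is named in the text on the series design. Each probe set is centred on its median over the 12 arrays, which was checked on the table; the log2 scale was read from the values. Absolute levels and signal over background are therefore not given, and differences of dim probe sets may be compressed. There were 0 missing values.

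Symbols came from the platform annotation: of 28853 probe sets 21789 had 1 symbol, 1621 several and 5443 were not listed. A model of 4 group means was fitted over the 12 arrays by limma (version 3.58.1, R 4.3.3; lmFit, eBayes, two-sided, 8 residual and 3.11 prior degrees of freedom), so that saline and combination arrays lend their spread but not their level. Adjustment was by Benjamini and Hochberg over 28853 probe sets or, for 1 value per gene (the mean of its probe sets), over 19938 genes. SEs and 95% intervals are those of the fit, and ± gives an SD. For arrays, their number limits the precision: an exact permutation test of 3 against 3 arrays cannot go below p = 0.1. The fit was tested on simulated data.

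The named genes follow a rule. Among probe sets with 1 symbol and no overlap between the groups it took up to 12 per direction past the threshold, and since none passed, filled each direction by the smallest unadjusted p with a difference of at least 0.3. Receptor families of smell and taste, small RNAs and unnamed transcripts were left out. From each of 37 lists (435 of 469 genes measured) the 2 members with the smallest p were taken into the checks of the closing section, with Drd3. Not all of them are given in the text. Any member of the clock, early gene, cold-inducible and dopamine receptor lists could be given. Further members (such as Spry4, Spred3, Slc6a3, Slc6a4, Slc18a2, Penk, Aldh2, Cat, Xbp1, Coq2, Coq3, Coq4, Fkbp5, Sgk1, Thra and Thrb) were chosen after their values were seen. The comparison, the lists and the members were chosen with earlier results of these data known, including clock and early gene differences in arrays with mephedrone, so these are not independent support. Alternatives are given in the closing section.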

Additional observations from a re-analysis of the deposited data

How the results depend on the processing

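Across 21 alternative settings, all 24 genes named by the rule kept their sign. For these genes that was largely fixed in advance. The rule required their groups to lie apart, so leaving out arrays could not reverse a sign. Leaving out a saline or combination array does not change any difference. Of 64 other list members checked, not all of which are given in the text, 62 kept their sign. Probe sets past the threshold numbered 0 in most settings. There was 1 without saline replicate 3 (Pilra, adjusted p = 0.0415), 1 without combination replicate 2 (an unnamed probe set, -0.778, adjusted p = 0.00735), 1 with array weights (Mpp3, adjusted p = 0.0157) and 1 with the choroid plexus mean as a covariate (Gpx6, adjusted p = 0.0172), and 20 at an unadjusted p under 0.05 with at least 1.5-fold. Leaving out 1 array gave 0 to 1 past the threshold and 1390 to 2457 at an unadjusted p under 0.05. That count was 3001 without ethanol replicate 1 and combination replicate 3 together and 3092 with array weights, which gave those arrays 0.356 and 0.427 against 0.888 to 1.73 for the others. On the 6 arrays alone it was 2021, with a smallest adjusted p of 0.0653. Leaving out 1 array put the list medians at 0.0163 to 0.0617 for the clock, -0.167 to -0.0948 for immediate early genes, -0.143 to -0.119 for ERK feedback, 0.215 to 0.345 for cold-inducible and -0.116 to -0.0494 for heat shock genes. Cfap126, an ependymal marker at -0.053, lay between -0.146 and 0.0366 with 1 array left out, the latter without ethanol replicate 1, and was at 0.0366 without that array and combination replicate 3 and at 0.0262 with array weights. Sp9, an indirect-pathway marker at -0.078, lay between -0.132 and 0.00725, the latter without ethanol replicate 2. The cause of these changes was not tested. Arrays share replicate numbers, but the deviations of same-numbered ethanol and mephedrone arrays correlated at 0.396, 0.0616 and 0.053, so the numbers were not taken as pairs; a fit with the replicate block had 0 past the threshold and 1858 at an unadjusted p under 0.05. The list medians and the counts at an unadjusted p under 0.05 were added as results after seeing the data.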

Other observations

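A family of interferon-related nuclear body genes read lower with mephedrone on nearly all of its probe sets. Of 16 probe sets annotated to Sp110, Sp140, A530032D15Rik, A530040E14Rik or copies of them, all 16 were below 0, and in 15 all 3 mephedrone arrays lay below all 3 ethanol arrays, as did 6.38% of all probe sets. Differences ran from -0.554 to -0.0358 with a median of -0.317, and the smallest limma adjusted p was 0.172. The mean over the 16 was 0.143, 0.133 and 0.153 on the ethanol arrays and 0.13, 0.185 and 0.117 on the saline arrays. It was -0.139, -0.131 and -0.185 on the mephedrone arrays and -0.113, -0.0696 and -0.118 on those of the combination. In this mean, neither group given mephedrone overlapped either group without it. Single probe sets could overlap. The one with the largest difference read -0.0222, 0.0222 and 0.18 with saline and 0.148, -0.152 and -0.0711 with the combination. The probe sets read near-identical copies, so they are not independent, and 8 of the 16 carry 1 symbol. The family was chosen after its values were seen.

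Of the named genes, Zcwpw1 (lower) and Pilra (higher) overlap on chromosome 5, and on the same chromosome 24 protein-coding genes lie between Pilra and Zfp157 and 31 between Vgf and Zcwpw1. An unnamed probe set read -0.74, -0.65 and -0.51 with mephedrone and between -0.25 and 0.28 on the 9 other arrays, a difference of -0.78 (SE 0.12). Cd59a, which protects cells from complement, was at 0.91 (SE 0.27), with ethanol arrays at -0.34, -0.91 and -1.18, and Snord53, a small nucleolar RNA, was at -1.22 (SE 0.50). These were also chosen after their values were seen.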
